A study of Mus musculus with 6 samples.

Results

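The 98 cytochrome P450 genes described here were chosen by symbol from 43432 gene IDs in a table of raw read counts: every gene whose symbol is Cyp, a family number, a letter and a gene number, with or without a closing letter. Pseudogene symbols ending in -ps were left out, and so was Cyp4x1os, an opposite-strand RNA gene with 0 counts in every library. The RNA was from the thymus of 4-week-old C57BL/6 mice, from the epithelial cells of its medulla (mTEC). Copa+/+ mice (WT, 3 libraries) were compared with CopaE241K/+ mice (MUT, 3 libraries), which carry 1 copy of an allele with an amino acid change in the COPI coat subunit encoded by Copa. Whether each library stands for 1 animal or several is not in the labels, nor is the sex of the mice. Every p-value here therefore rests on library-to-library spread, part of which may be technical. The question the design poses is whether the allele alters gene expression in mTEC.

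Cytochrome P450 enzymes are haem proteins that insert oxygen into fatty acids, steroids, bile acids, vitamins and foreign compounds. Most are made in a few organs such as the liver, adrenal gland, gonads, lung or olfactory mucosa, and most sit in membranes of the endoplasmic reticulum or mitochondria. mTEC are known for transcribing many such organ-restricted genes so that developing T cells meet their products, and several human P450s are targets of autoantibodies in people who lack AIRE, the regulator of that transcription.

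The 6 libraries held 19934513 to 23366238 counts, of which P450 genes took 118473, or 0.0907%. Levels are given in CPM, counts scaled to a common library size after TMM adjustment, and levels are compared between genes only after division by exon length in kilobases (CPM per kb). All 12 markers of medullary epithelium had counts, and their summed level was 9976 to 13117 CPM in each library. The summed level of 4 cortical epithelial markers was 296 to 524 CPM, of 8 leukocyte markers 522 to 1424 CPM, and of 6 fibroblast and endothelial markers 41.4 to 149 CPM. No marker in these lists was at 0 in all libraries. Ccl21a, a medullary chemokine gene, had 0 counts in every WT library and 4 in each of MUT libraries 1 and 3. None of these markers passed the test of MUT against WT, and their fitted log2 fold changes lay on both sides of 0. For medullary markers 4 were above and 7 below (median -0.18), for cortical markers 3 above and 1 below (0.22), and for fibroblast and endothelial markers 3 above and 3 below (0.12). The genotypes did not overlap for 1 of the 11 tested medullary markers, lower in MUT, where 3.96% of all tested genes were lower in this way. It was 0 of the cortical and 0 of the fibroblast and endothelial markers. The smallest p in each list belonged to Cldn4 (-0.64, SE 0.37, and -0.30 without WT replicate 1), Foxn1 (-0.36, SE 0.36, and -0.015 without WT replicate 1) and Pdgfrb (-0.61, SE 0.78, and -0.22 without MUT replicate 2). Copa had a WT mean of 400 ± 151 and a MUT mean of 348 ± 43.6 CPM (± SD over 3 libraries of a genotype, here and in all such values), a log2 fold change of -0.20 (SE 0.34) that was 0.14 without WT replicate 1. A count of Copa does not check an allele with a single amino acid change.

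Counts for P450 genes were concentrated at 1 place in the genome. The 98 members lie in 10 groups of neighbours, joined where they are within 500000 bases of each other, and at 22 single-gene positions, with 76 members in the groups. The Cyp2 locus on chromosome 7 (GRCm38, 25802475 to 27158668) holds 13 members of the Cyp2a, Cyp2b, Cyp2f, Cyp2g, Cyp2s and Cyp2t subfamilies and took 56.5% of all P450 counts. The 4 members with the most counts, Cyp2a5, Cyp2b19, Cyp2g1 and Cyp2f2, are all in this locus and together held 53.1% of the family's counts. The 14 members of the Cyp2c locus on chromosome 19 (39007019 to 40187333) took 2.7% and the 10 of the Cyp4a, Cyp4b and Cyp4x locus on chromosome 4 (115106323 to 115647723) took 0.83%.

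The locus on chromosome 7 also holds a pair of near copies that were counted very unequally. Cyp2a5, a coumarin hydroxylase of liver and olfactory mucosa (ENSMUSG00000005547, 26835305 to 26843548), had 23658 counts in all. Cyp2a4, a steroid hydroxylase whose transcript is 98.2% identical to that of Cyp2a5 (ENSMUSG00000074254, 26307169 to 26315088), had 63. The sequences upstream of both genes are shown because they are nearly the same too: over the 250 bases before each RefSeq start (GRCm38.p6) 245 bases were identical and 4 were mismatched, and 1 base of each had no partner. Capitals mark bases that differ or are unpaired. Each sequence stops at the first base annotated as transcribed by GENCODE M21, at chr7:26835089-26835304 for Cyp2a5 and chr7:26306942-26307168 for Cyp2a4, both on the plus strand.
Cyp2a5: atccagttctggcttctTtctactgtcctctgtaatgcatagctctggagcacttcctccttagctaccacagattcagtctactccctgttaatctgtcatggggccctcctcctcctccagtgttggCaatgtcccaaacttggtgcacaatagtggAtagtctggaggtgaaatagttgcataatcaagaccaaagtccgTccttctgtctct
Cyp2a4: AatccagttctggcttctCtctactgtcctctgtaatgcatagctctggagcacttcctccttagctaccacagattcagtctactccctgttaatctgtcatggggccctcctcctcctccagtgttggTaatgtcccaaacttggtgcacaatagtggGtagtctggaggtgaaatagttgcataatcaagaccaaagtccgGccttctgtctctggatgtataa
The program that assigned reads to genes is not given in the sources used here, so reads that match both genes may have been divided or dropped, and the unequal counts come with that limit.

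CG pairs upstream of the start set a few members apart. Of the 75 members with an entry in the RefSeq promoter table, 8 (10.7%) held 10 or more CG pairs in the 250 bases upstream, against 38.2% of 27025 genes in that table. The members had a median of 2 pairs and all genes a median of 6. Among the 19 of these members that were counted in every library, 5 held 10 or more: Cyp26a1 with 20 pairs, Cyp4v3 with 17, Cyp2s1 and Cyp20a1 with 15 each and Cyp1b1 with 12. Among the 53 counted in 1 to 5 libraries it was 3: Cyp46a1 with 23, Cyp2r1 with 16 and Cyp4f39 with 10. Of the 6 members with the highest levels per length, Cyp2a5 had 1 pair, Cyp2f2 0, Cyp2b19 1, Cyp4f16 2 and Cyp4v3 17, and Cyp2g1 has no entry in the table. A CG-poor and a CG-rich member of these 6 are shown with CG pairs in capitals: Cyp2f2 at chr7:27119705-27119908 on the plus strand has none, and the stretch shown for Cyp4v3, at chr8:45333217-45333413 on the minus strand, has 13.
Cyp2f2: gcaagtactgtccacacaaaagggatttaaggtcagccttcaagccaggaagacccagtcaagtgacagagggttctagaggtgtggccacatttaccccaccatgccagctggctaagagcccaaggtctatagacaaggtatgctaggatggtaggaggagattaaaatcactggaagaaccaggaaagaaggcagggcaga
Cyp4v3: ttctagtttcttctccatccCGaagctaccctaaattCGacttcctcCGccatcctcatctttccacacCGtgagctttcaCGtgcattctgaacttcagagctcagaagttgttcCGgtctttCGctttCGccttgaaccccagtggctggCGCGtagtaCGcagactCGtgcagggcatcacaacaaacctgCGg
CG-poor upstream sequence thus went with both the highest levels and the lowest, and 2 of the most CG-rich members, Cyp46a1 and Cyp2r1, had 65 and 17 counts in all.

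**Figure D1:**
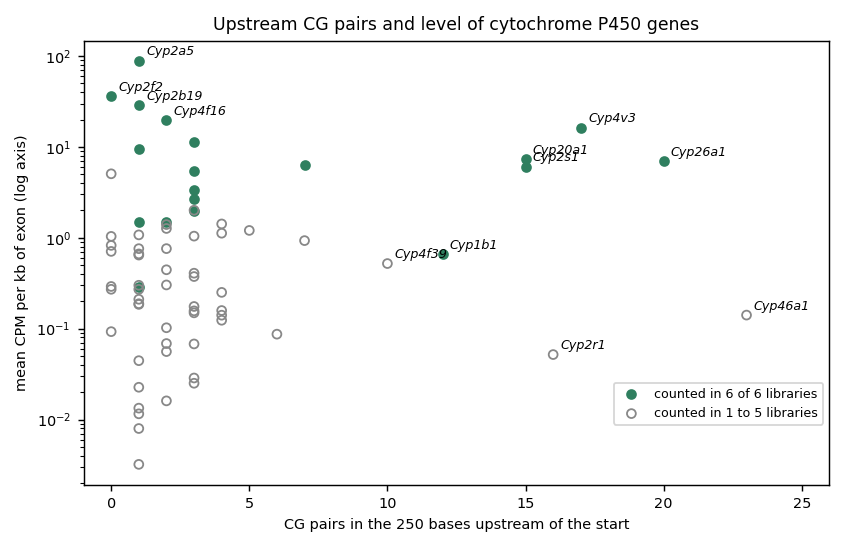
CG pairs in the 250 bases upstream of the RefSeq start (x axis) against mean CPM per kb of exon over 6 libraries (y axis, log scale) for members with a promoter entry and at least 1 count; each point is 1 gene, filled where it was counted in 6 of 6 libraries. Cyp2a5, Cyp2f2 and Cyp2b19 lie at the top left with 0 or 1 pair, and Cyp4v3, Cyp20a1, Cyp26a1 and Cyp2s1 combine 15 or more pairs with 6.08 to 16.3 CPM per kb.

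Detection differed widely from gene to gene and from library to library. Of the 98 members, 94 had at least 1 count, 22 were counted in all 6 libraries, and 12 in 1 library alone. The share counted in all 6 was 22.4%, against 31.5% of all gene IDs in the table. The members are all annotated as protein-coding, while the gene IDs include pseudogenes and RNA genes, so these are shares of unlike sets. The number of members with a count was 43, 66 and 68 in WT libraries 1, 2 and 3, and 45, 49 and 84 in MUT libraries 1, 2 and 3. Both genotypes spanned low and high values, with means of 59.0 ± 13.9 in WT and 59.3 ± 21.5 in MUT. The number of all genes with a count ran in the same libraries from 17174 in WT library 1 to 24774 in MUT library 3, which were also the libraries with the fewest and the most P450 genes. Whether a broader detection of all genes accounts for the count of P450 genes was not tested. With a threshold of 1 CPM the numbers were 30, 41 and 47 in WT and 32, 30 and 49 in MUT.

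**Figure D2:**
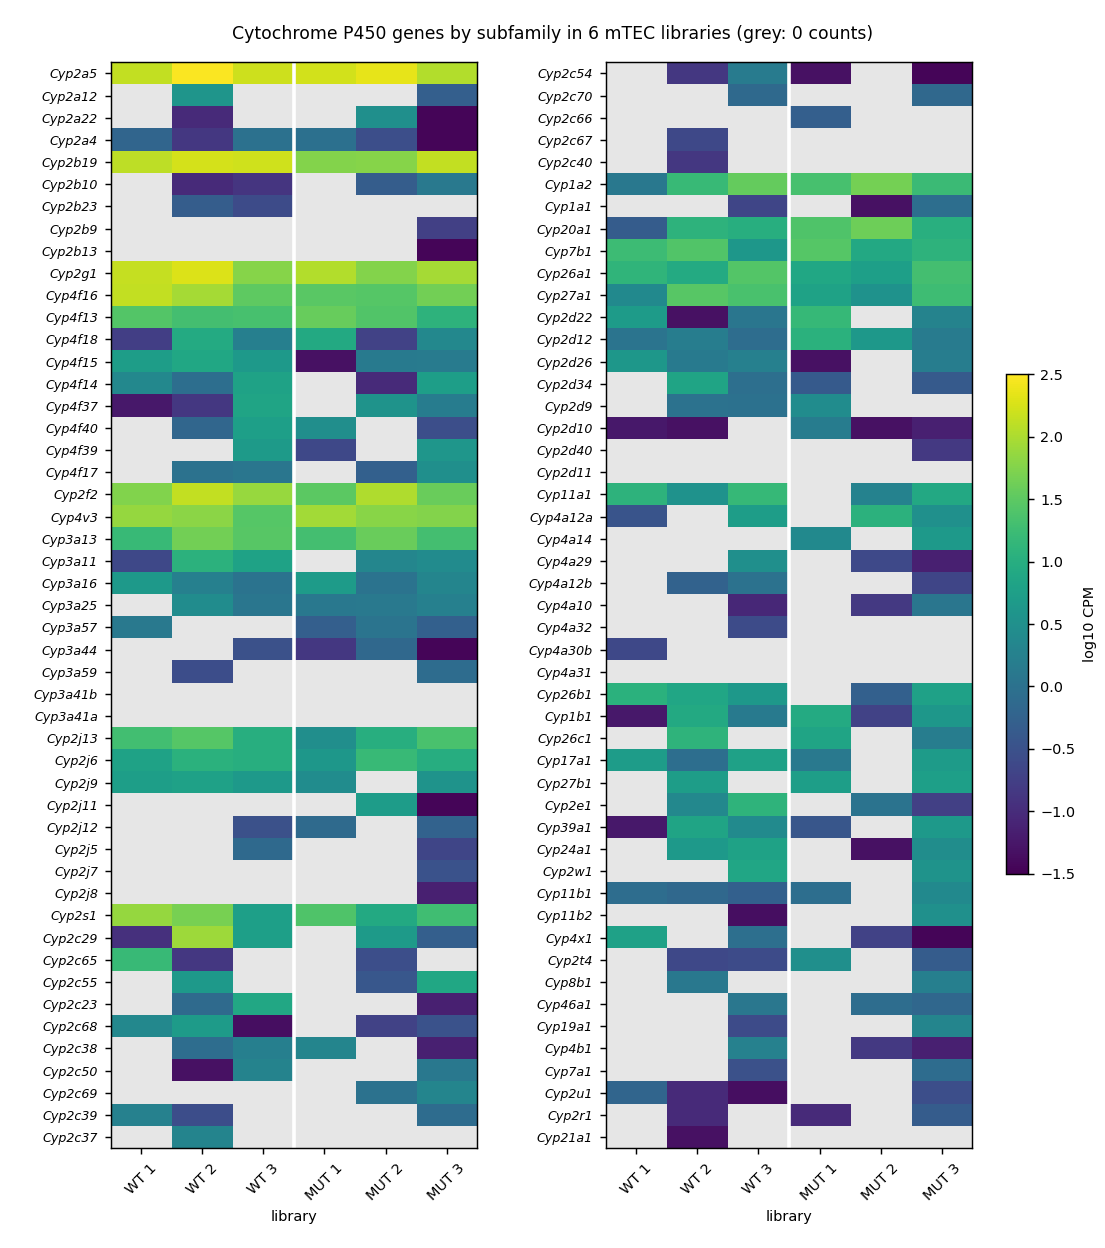
log10 CPM of each of the 98 members (rows, by subfamily in order of total counts) in the 6 libraries (columns, WT left and MUT right of the white line); grey cells hold 0 counts. Rows such as Cyp2a5, Cyp2b19, Cyp2g1 and Cyp2f2 are filled in every library, while most rows of the Cyp2c and Cyp4a subfamilies are filled in part.

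Many members owed most of their level to 1 library. For 58 of the 94 counted members (61.7%), 1 library held at least 50% of the CPM summed over libraries. The 12 members counted in 1 library and the 13 counted in 2 reach 50% by necessity. The share over all genes is not given here, so the 61.7% is not particular to these members. The library with the highest value was WT library 2 for 23 members, WT library 3 for 21, MUT library 3 for 20, MUT library 1 for 13, WT library 1 for 10 and MUT library 2 for 7. Of the 53 members with at least 100 counts, 5 had at least 80% of their level in 1 library, and they were chosen for naming after their values were seen: Cyp2c29, Cyp2c65, Cyp2c23, Cyp4x1 and Cyp2j11. Cyp2c65 had 274 counts in WT library 1, 3 in WT library 2, 6 in MUT library 2 and 0 in the others. Cyp2j11 had 106 counts in MUT library 2, 1 in MUT library 3 and 0 elsewhere. These genes therefore appear high in whichever genotype the 1 library belongs to.

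The 12 members counted in 1 library alone fall in 1 genotype by necessity. With these included, 7 members were counted in WT libraries alone and 9 in MUT libraries alone, and no share over all genes is given for comparison. Most of these had few counts. The largest by counts, Cyp4a14, a fatty acid hydroxylase of liver and kidney, was named here after its values were seen. It had 53 counts in MUT library 1, 129 in MUT library 3 and 0 in the others. With counts in 2 libraries it was not tested. In the other direction Cyp2c37 had 43 counts, all in WT library 2. The 4 members with no count were Cyp2d11, Cyp4a31, Cyp3a41a and Cyp3a41b, and a count of 0 over all libraries allows a level of up to 0.0229 CPM (3 counts, counting error only). Cyp3a41a and Cyp3a41b are 99.7% identical to each other and Cyp4a31 is 96.0% identical to Cyp4a32, so their values are uncertain. Of the 26 members with a copy at least 95% identical, 3 were counted in every library, and of the other 72 it was 19.

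Neighbours were not always high in the same library. In the Cyp2d locus on chromosome 15 (82370527 to 82794294), 4 of the 7 counted members were highest in MUT library 1. Cyp2d22, the member of this locus with the highest level, had 86, 1 and 27 counts in WT and 326, 0 and 54 in MUT. Its neighbour Cyp2d12 had 19, 33 and 19 counts in WT and 239, 89 and 41 in MUT. In the Cyp2c locus, 5 of 14 members were highest in WT library 2 and the others in 4 further libraries. Cyp2c29, a liver P450 that metabolizes drugs and arachidonic acid (ENSMUSG00000003053, 39269405 to 39330713), had 2, 1738 and 128 counts in WT and 0, 100 and 14 in MUT. In the Cyp2 locus on chromosome 7, 6 of 13 members were highest in WT library 2.

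In the chromosome 7 locus, 5 members lay well above the rest in every library or nearly so. Cyp2a5 stood at 88.3 CPM per kb as a mean over libraries, Cyp2g1 at 50.6, Cyp2f2 at 36.4, Cyp2b19 at 28.6 and Cyp2s1 at 6.08. In single libraries Cyp2a5 ran from 52.4 to 146 CPM per kb, Cyp2g1 from 26.7 to 92.2, Cyp2f2 from 15.3 to 67.5 and Cyp2b19 from 13.8 to 42.0. Within libraries, Cyp2a5 was above Cyp2g1 in 6 of 6 and Cyp2b19 above Cyp2s1 in 6 of 6. Cyp2g1 was above Cyp2f2 in 4 of 6 and Cyp2f2 above Cyp2b19 in 3 of 6, so the order of these neighbours varied from library to library. The other 8 members of the locus had means of at most 0.41 CPM per kb. These genes differ in their known sites of expression: Cyp2g1 is an olfactory mucosa P450, Cyp2f2 a P450 of lung club cells that activates naphthalene, and Cyp2b19 a keratinocyte enzyme that makes epoxides of arachidonic acid.

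**Figure D3:**
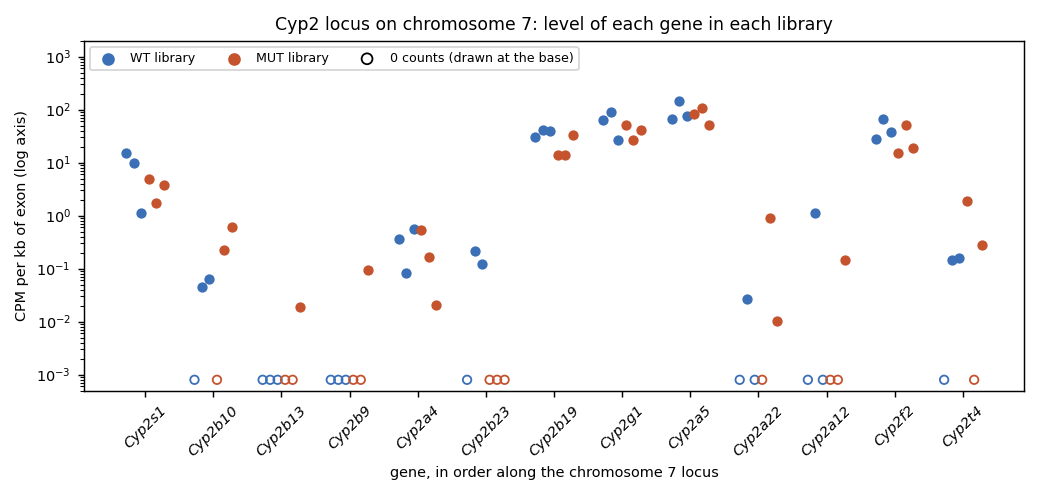
CPM per kb of exon (y axis, log scale) of the 13 genes of the chromosome 7 Cyp2 locus in order of position (x axis); each point is 1 library, blue for WT and red for MUT, and open points at the base are libraries with 0 counts. Cyp2b19, Cyp2g1, Cyp2a5 and Cyp2f2 lie between 13.8 and 146 CPM per kb, next to genes with several libraries at 0.

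The summed level of the P450 genes was lower in MUT in every library. It was 930 CPM in WT library 1, 1419 in WT library 2 and 835 in WT library 3, against 750, 788 and 752 in MUT libraries 1, 2 and 3. The genotypes did not overlap, and the log2 ratio of the means was -0.48, but it was -0.21 without WT replicate 2, the library with the highest sum. With raw library totals as the scale, the genotypes overlapped, at 795 to 1317 CPM in WT and 719 to 891 in MUT. The chromosome 7 Cyp2 locus made up 461 to 866 CPM in WT and 394 to 458 in MUT, and all other members 374 to 553 in WT and 330 to 356 in MUT. A sum over chosen members was given no test. In bulk samples, fewer cells of a kind and less RNA per cell cannot be told apart. All 8 leukocyte markers had counts, and they summed to 777, 1088 and 619 CPM in WT and to 678, 1424 and 522 in MUT. Of the 8, 3 were above 0 and 5 below in log2 fold change, with a median of -0.24. The smallest p among them was that of Adgre1, a macrophage gene, which had a WT mean of 30.1 ± 16.0 and a MUT mean of 7.33 ± 5.30 CPM, without overlap (log2 fold change -2.04, SE 0.95, edgeR adjusted p = 0.999875). The part of these cells in the P450 sum was not tested.

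**Figure D4:**
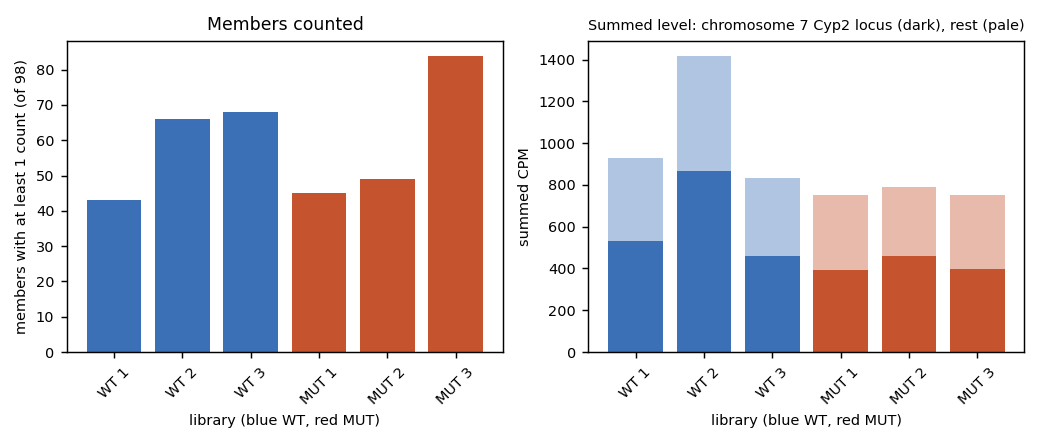
Left, the number of the 98 members with at least 1 count in each library; right, their summed CPM, with the chromosome 7 Cyp2 locus in dark and all other members in pale colour. The number counted spans 43 to 84 with both genotypes mixed, while the 3 MUT sums, 750 to 788 CPM, lie below the 3 WT sums, 835 to 1419 CPM.

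No P450 gene passed the test of MUT against WT. edgeR's quasi-likelihood test, with Benjamini-Hochberg adjustment over 17172 tested genes at 0.05, called 0 of the 47 tested members and 0 genes in all (0.0%), and the lowest adjusted p of a member was 0.999875. At an unadjusted p under 0.05 it was 1 member, Cyp4f16, or 2.13% of the 47, against 3.48% of all tested genes (1.85% lower in MUT, as Cyp4f16 was). DESeq2 called 0 members (116 of 27388 genes, 0.424%), and edgeR called 0 of 94 once low counts were kept (73 of 28820 genes, 0.253%). With the replicate number as a block, edgeR called 0 members (1 of 17172 genes, 0.00582%). The median SE of a member's log2 fold change was 1.94, against 1.03 over all tested genes.

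Fitted values lay on both sides of 0. Of the 47 tested members 19 were above and 28 below, with a median log2 fold change of -0.46 beside -0.01 over all tested genes. Passing the count filter needs enough reads in 3 libraries, which 17 members had in either genotype alone, 8 in WT alone and 3 in MUT alone. The other 19 needed libraries of both. The median is therefore a description of the members let in, since the other 51 members lacked enough reads in 3 libraries. It was -0.24 over 94 members when low counts were kept and -0.23 over all members with a fitted value in DESeq2. The genotypes did not overlap for 2 tested members, both lower in MUT (4.26% of the 47), where 3.96% of all tested genes were lower in this way, 5.39% higher and 9.35% either.

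**Figure D5:**
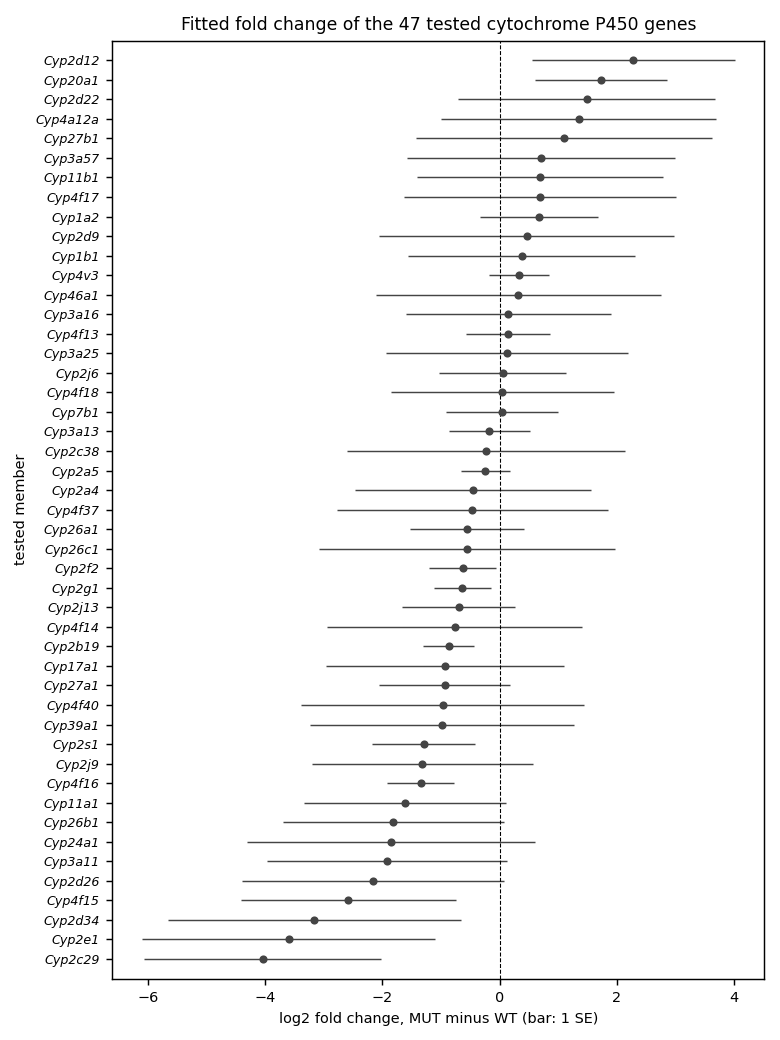
Fitted log2 fold change, MUT minus WT (x axis), of the 47 tested members (y axis, in order of value); points are edgeR estimates and bars 1 SE. Values run from -4.05 for Cyp2c29 to 2.28 for Cyp2d12, and most bars cross 0.

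Among the genes of the chromosome 7 locus, Cyp2b19 (ENSMUSG00000066704, 26757142 to 26772630) measured 125, 175 and 162 CPM in WT libraries 1, 2 and 3 and 57.7, 58.7 and 137 CPM in MUT. MUT libraries 1 and 2 were low and MUT library 3 lay inside the WT range. Its log2 fold change was -0.87 (SE 0.44, unadjusted p = 0.071 in edgeR's fit), and -1.41 without MUT replicate 3. Cyp2a5 measured 136, 303 and 157 CPM in WT and 168, 226 and 109 CPM in MUT, with both genotypes mixed. Its log2 fold change of -0.24 (SE 0.42) was 0.19 without WT replicate 2. Cyp2g1 (26808892 to 26821205) measured 139.9, 198 and 58.6 CPM in WT and 108, 57.2 and 90.0 CPM in MUT, and the ranges overlapped (log2 fold change -0.63, SE 0.49, but -0.23 without WT replicate 2). Cyp2f2 (27119909 to 27133660) measured 56.0, 137 and 75.4 CPM in WT and 30.9, 104 and 38.9 CPM in MUT, where MUT library 2 exceeded WT libraries 1 and 3 (-0.63, SE 0.57, but -0.19 without WT replicate 2 and -1.36 without MUT replicate 2). Cyp2s1, an epithelial P450 that dioxin induces, measured 73.8, 48.6 and 5.63 CPM in WT and 24.7, 8.62 and 18.8 CPM in MUT. WT library 3 was the lowest of all 6, and the log2 fold change was -1.30 (SE 0.87), or -0.64 without WT replicate 1.

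The Cyp4 family, whose products hydroxylate the ends of fatty acids and leukotrienes, included the member with the smallest p and 1 of the 2 without overlap. Cyp4f16 (ENSMUSG00000048440, chromosome 17, 32536558 to 32551798) measured 136, 91.8 and 32.6 CPM in WT and 30.5, 27.7 and 43.8 CPM in MUT. WT libraries 1 and 2 stood above all MUT libraries, and WT library 3 did not. Its log2 fold change was -1.35 (SE 0.58), the unadjusted p was 0.038 in edgeR's fit, and the value was -0.87 without WT replicate 1. Cyp4f16 is 96.1% identical to Cyp4f37, which had 279 counts in all, so their separate values are uncertain. Cyp4f15 measured 5.40, 7.58 and 4.40 CPM in WT and 0.047, 1.39 and 1.45 CPM in MUT. All MUT libraries lay below all WT libraries, with a log2 fold change of -2.58 (SE 1.84). It passed the count filter through WT alone. Cyp4f13, with a WT mean of 23.0 ± 3.65 and a MUT mean of 25.4 ± 12.7 CPM (log2 fold change 0.14, SE 0.72), changed sign without MUT replicate 1, at -0.25. Cyp4v3, whose human counterpart is mutated in a crystalline dystrophy of the retina, stood at 16.3 CPM per kb as a mean over libraries and had a WT mean of 54.8 ± 23.5 and a MUT mean of 69.0 ± 17.8 CPM (log2 fold change 0.33, SE 0.52, but 0.016 without WT replicate 3 and 0.099 without MUT replicate 1).

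The Cyp2j subfamily, whose products make epoxides of arachidonic acid, gave the other member without overlap. Cyp2j9 measured 5.57, 6.07 and 4.40 CPM in WT and 2.78, 0 and 3.65 CPM in MUT. It also passed the filter through WT alone, and its log2 fold change of -1.32 (SE 1.89) was smaller than its SE, and it was -0.74 without MUT replicate 2. Cyp2j13, the member of this subfamily with the highest level, had a WT mean of 19.3 ± 8.80 and a MUT mean of 11.9 ± 9.80 CPM (log2 fold change -0.70, SE 0.97, ranging from -1.54 with MUT replicate 3 left out to -0.24 with MUT replicate 1 left out). Of the 8 Cyp2j members 3 were tested.

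The members with the largest fitted difference in each direction among the 5 smallest p-values were Cyp2c29 and Cyp20a1. Cyp2c29 measured 0.115, 81.8 and 5.63 CPM in WT and 0, 4.79 and 0.506 CPM in MUT. WT library 2 alone held 88.1% of its level, and the log2 fold change of -4.05 (SE 2.02) was -0.71 without that library. Cyp20a1, an orphan P450 with no settled substrate (ENSMUSG00000049439, chromosome 1, 60343323 to 60388060), measured 0.46, 12.3 and 10.3 CPM in WT and 25.1, 41.0 and 10.6 CPM in MUT. The highest WT library exceeded MUT library 3, and the log2 fold change was 1.73 (SE 1.13). It passed the filter through MUT alone, which favours a value above 0.

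Members of the steroid hormone pathway were counted unevenly from library to library. All 6 had at least 1 count and 3 were tested. Cyp11a1, the side-chain cleavage enzyme that starts steroid synthesis (ENSMUSG00000032323, chromosome 9, 58006411 to 58027023), had the highest level of the 6, with 216, 74 and 340 counts in WT and 0, 39 and 227 in MUT. MUT library 1 was empty and the genotypes overlapped (log2 fold change -1.61, SE 1.72, ranging from -3.46 with MUT replicate 3 left out to -1.03 with MUT replicate 1 left out). Cyp11a1 passed the filter through WT alone, which favours a value below 0. Cyp17a1, the next enzyme towards androgens, had 88, 19 and 141 counts in WT and 28, 0 and 139 in MUT. Cyp11b1 and Cyp11b2, which finish corticosterone and aldosterone, had 130 and 89 counts in all, with 69 and 88 of them in MUT library 3. Cyp19a1, the aromatase that makes oestrogens, had 58 of its 64 counts in the same library. Cyp21a1, the steroid hydroxylase of the adrenal cortex, had 1 count in the 6 libraries. It is 97.4% identical to the pseudogene Cyp21a2-ps, so reads may not have been assigned to it.

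The counterparts of P450s that are autoantigens in people lacking AIRE thus ranged from the top to the bottom of the family. Per length, Cyp2a5 stood at 88.3 CPM per kb and Cyp1a2 at 11.4, Cyp11a1 at 1.42, Cyp17a1 at 1.11 and Cyp21a1 at 0.0037. Cyp1a2, a liver enzyme that clears caffeine (ENSMUSG00000032310, chromosome 9, 57676937 to 57683703), had 22, 332 and 824 counts in WT and 457, 975 and 458 in MUT. WT library 1 was far below the others, and the log2 fold change of 0.67 (SE 1.01) ranged from 0.095 with MUT replicate 2 left out to 1.74 with WT replicate 3 left out. Its neighbour Cyp1a1, the family member that ligands of the aryl hydrocarbon receptor induce most, had 5 counts in WT library 3, 1 in MUT library 2 and 24 in MUT library 3. Cyp1b1, which acts on oestrogens and is made outside the liver, had 1, 182 and 32 counts in WT and 186, 4 and 113 in MUT. Of the 5 counterparts, 4 were tested and 0 passed.

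P450s of bile acid and oxysterol metabolism were led by genes that also act outside the liver. Cyp7b1, an oxysterol hydroxylase, had 299, 551 and 94 counts in WT and 595, 172 and 343 in MUT (log2 fold change 0.04, SE 0.96), and the sign changed without WT replicate 3 (-0.41) or MUT replicate 1 (-0.61). Cyp27a1, the mitochondrial sterol hydroxylase, had 43, 603 and 516 counts in WT and 137, 73 and 499 in MUT. The liver enzymes Cyp7a1 and Cyp8b1 were low. Cyp7a1, the rate-limiting step of bile acid synthesis, had 7 counts in WT library 3 and 23 in MUT library 3. Cyp8b1 had 27 in WT library 2 and 46 in MUT library 3. Cyp39a1, also of this list, had 1, 145 and 59 counts in WT and 8, 0 and 122 in MUT. Cyp46a1, which turns over cholesterol in the brain, had 28 counts in WT library 3 and 18 and 19 in MUT libraries 2 and 3. Of the 6 genes 4 were tested and 0 passed.

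Retinoic acid is cleared by the Cyp26 enzymes, and Cyp26a1 was counted throughout. It measured 13.3, 8.85 and 27.2 CPM in WT and 7.74, 5.65 and 20.2 CPM in MUT, and the libraries with replicate number 3 were the highest of each genotype (log2 fold change -0.55, SE 0.97, but 0.020 without WT replicate 3). Cyp26b1 had 200, 158 and 99 counts in WT and 0, 11 and 168 in MUT. Cyp26c1, which lies beside Cyp26a1 on chromosome 19, had 266 counts in WT library 2, 147 in MUT library 1 and 44 in MUT library 3, with 0 in the others. Among the vitamin D genes, Cyp27b1, which makes the active hormone, had 112 counts in WT library 2, 118 in MUT library 1 and 160 in MUT library 3, and 0 in the rest (log2 fold change 1.10, SE 2.53). That value was 0.52 without WT replicate 1 or 3 and 6.66 with the replicate block. Without WT replicate 2 the WT libraries were all at 0 and no fold is given. Cyp24a1, which inactivates it, had 95 and 144 counts in WT libraries 2 and 3, and 1 and 81 in MUT libraries 2 and 3. None of these genes passed the test.

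Members of the Cyp3a, Cyp2d and Cyp4a subfamilies, many of which are drug and fatty acid enzymes of the liver, showed the same overlap of genotypes. Cyp3a13 had the highest level of its subfamily, with a WT mean of 29.7 ± 14.3 and a MUT mean of 26.3 ± 10.5 CPM (log2 fold change -0.18, SE 0.69, but 0.22 without WT replicate 2). Cyp2d22 had a WT mean of 2.06 ± 2.56 and a MUT mean of 5.78 ± 8.37 CPM, and its log2 fold change of 1.49 (SE 2.19) was -1.07 without MUT replicate 1. Cyp4a12a measured 0.345, 0 and 5.41 CPM in WT and 0, 11.6 and 3.18 CPM in MUT (1.35, SE 2.35), and gave -0.30 without MUT replicate 2. It is 98.2% identical to Cyp4a12b, so their counts are uncertain. The SE exceeded the size of the fitted value for every tested member of these subfamilies except Cyp2d12 and Cyp2d34. Cyp2d12 had the highest fitted value of all tested members (2.28, SE 1.73). Its genotypes overlapped only narrowly, with MUT library 3 at 1.48 CPM below WT library 2 at 1.55 CPM. Cyp2d34 was lower in MUT (-3.16), also with overlapping genotypes.

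Genes that P450s work with were counted in every list examined, and none passed the test. P450 enzymes need electrons from partner proteins: all 8 genes of electron donors and binding partners were tested, 3 above 0 and 5 below (median -0.11 in log2 fold change). The member with the smallest p, Cyb5r3, the reductase of cytochrome b5, had a WT mean of 281 ± 66.9 and a MUT mean of 431 ± 214 CPM (0.62, SE 0.38, but 0.12 without MUT replicate 2). Of 12 genes of haem synthesis and breakdown 5 were above 0 and 7 below, with a median of -0.15. There Blvra, a biliverdin reductase, had a WT mean of 16.5 ± 9.98 and a MUT mean of 4.96 ± 5.23 CPM (-1.73, SE 1.21, but -1.13 without WT replicate 2 and -3.02 without MUT replicate 3). Of 15 tested nuclear and xenobiotic receptors, 5 were above 0 and 10 below, with a median of -0.59. Nr1h3, the oxysterol receptor LXR alpha, had 3341, 183 and 276 counts in WT and 29, 71 and 93 in MUT. All MUT libraries lay below all WT libraries, with a log2 fold change of -4.71 (SE 1.19) that was -1.94 without WT replicate 1. Its adjusted p was 0.999875 in edgeR's test and 5.5e-05 in edgeR when low counts were kept, and from 0.779 to 0.999965 in its other alternatives. DESeq2 gave it no adjusted p.

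Other steroid and drug metabolism genes and a set of liver antigens were examined beside the P450s. Of 8 other steroid synthesis genes 6 were tested, with Hsd3b6 at a WT mean of 37.8 ± 51.4 and a MUT mean of 11.8 ± 10.2 CPM (log2 fold change -1.68, SE 1.68, but 0.45 without WT replicate 2). Of 19 tested drug metabolism genes outside the P450 family, 8 were above 0 and 11 below, with Fmo2, a flavin monooxygenase, at a WT mean of 61.1 ± 30.8 and a MUT mean of 117 ± 70.2 CPM (0.94, SE 0.54, but 0.34 without MUT replicate 2). Of 5 tested liver plasma protein genes 2 were above 0 and 3 below, with a median of -0.39. The genotypes did not overlap for 1 in each direction (of all tested genes, 3.96% lower in MUT and 5.39% higher). Alb, the albumin gene, had 686, 1498 and 386 counts in WT and 1, 211 and 99 in MUT, without overlap (-3.21, SE 1.28). In edgeR's fit its unadjusted p was 0.028, the smallest of this list, and its adjusted p was 0.999875. Fgb, a fibrinogen chain gene named after its values were seen, had 43, 139 and 285 counts in WT and 628, 378 and 393 in MUT, higher in MUT without overlap (1.52, SE 0.98). The summed level of the 6 liver plasma protein genes was 173, 384 and 120 CPM in WT and 209, 188 and 77.4 CPM in MUT, so the genotypes overlapped. WT library 2 was the highest for this sum as it was for the P450 sum.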

How the data were processed

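RNA-seq counts of mTEC from 3 WT and 3 MUT samples were used, grouped by sample title. The authors deposited raw read counts per Ensembl gene ID, without normalization. The tools named are STAR 2.4.2a and DESeq2 1.26.0 and the build GRCm38, per the submitters' processing notes, which state no roles here. How reads were counted, on which annotation and strand, and what became of reads matching several genes is not given in the sources used here, so near-identical and overlapping genes are uncertain. Per the labels' protocols, cDNA was made by a Nugen Ovation method and libraries by Nextera XT, and molecular identifiers are not mentioned: limits from counts cover counting error only.

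Of 43432 IDs, 42462 were matched to a symbol, and 0 sample columns were left unused. Genes kept by filterByExpr (17172) were tested for genotype, the only term, by robust quasi-likelihood F-tests in edgeR 4.0.16 under R 4.3.3. Library sizes were TMM-scaled and p-values adjusted by Benjamini-Hochberg at 0.05. SE is the log2 fold change divided by the square root of F. The script was tested on simulated data with known changes. It called 200 of 200 changed genes, with 12 false calls, at a coefficient of variation between libraries of 0.2. At 1.0 it called 32 of 189, with 1 false call. The sizes of the known changes are not given here, so these counts do not tell how often changes as small as most fitted above would be called. At the wider spread most changed genes were missed, so a count of 0 calls does not show equal levels. DESeq2 1.42.0, DESeq2 size factors, no filter, a stricter filter (1 CPM in 3 libraries), the replicate number as a block, thinning, other detection limits and leaving out each library were alternatives.

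Exon lengths and gene coordinates are from GENCODE M21 (GRCm38), and upstream sequences from RefSeq (GRCm38.p6), where 75 of 98 members matched. Copies were found with BLASTN 2.17.0 over the longest transcripts, requiring 500 aligned bases, and upstream sequences were aligned with Biopython 1.88. CG pairs were counted on 1 strand, which holds them for both. The members and lists were chosen with earlier results of these data known. Genes named are the 10 members with the highest mean CPM, the 5 with the smallest p, tested members without overlap, the highest of each P450 list and of each subfamily of 3 or more, the smallest p of each other list, and Copa. Others named were chosen after their values were seen, among them the further members of each list and locus.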

Additional observations from a re-analysis of the deposited data

How the results depend on the processing

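The count of 0 members past the threshold was the same under every alternative: the replicate block, DESeq2 size factors, no filter, the stricter filter, DESeq2 and each library left out. The count over all genes, 0, became 1 with the replicate block, 73 without a filter on low counts and 116 with DESeq2, and the cause was not tested. It ranged from 0 to 0 with 1 library left out. The median log2 fold change of tested members, -0.46, was -0.50 with the replicate block and -0.64 to -0.20 with 1 library left out. Same-numbered WT and MUT libraries share the ending of their source names, whose meaning the labels do not give, so the block was kept as an alternative. Deviations of same-numbered pairs had correlations of 0.059 to 0.13, and each of the 6 libraries matched its own number best in the other genotype. In all 3 same-numbered pairs, 11 of the 47 tested members were lower in MUT (of all tested genes, 11.3%). In the same pairs 2 members were higher (of all tested genes, 14.2%). Among the 11, Cyp2b19, Cyp2f2 and Cyp26a1 had enough reads for the count filter in either genotype alone. Cyp11a1, Cyp17a1, Cyp2d26, Cyp2j9, Cyp4f14 and Cyp4f15, also among the 11, passed it through WT alone, which favours a value below 0. The 11 are therefore a description of the members let in. All tested genes passed the same filter, by routes not given here, and an excess over all genes was not tested. The block changed no call of a member. With 1 library left out, the MUT minus WT difference in members counted ran from -12.0 to 7.50, in members at 1 CPM from -8.33 to 1.5, and the log2 ratio of summed levels from -0.62 to -0.21.

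Log2 fold changes that changed sign with 1 library left out ran from -0.52 to 0.19 for Cyp2a5, -0.56 to 0.22 for Cyp3a13, -0.25 to 0.47 for Cyp4f13, -0.61 to 0.60 for Cyp7b1, -1.30 to 0.020 for Cyp26a1, -0.57 to 0.18 for Cyp51, -1.07 to 3.20 for Cyp2d22, -0.30 to 4.81 for Cyp4a12a, -2.28 to 0.45 for Hsd3b6 and -0.42 to 0.14 for Copa. With the replicate block Cyp4a12a was at -0.25. The 51 members that were not tested lacked enough reads in 3 libraries. A member with 0 counts in 1 library may lie at up to 0.11 to 0.17 CPM there.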

Other observations

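There were 3 P450 genes examined that have symbols outside the naming pattern. Cyp51, the sterol demethylase of cholesterol synthesis and the most widely made P450, had 864, 2229 and 1292 counts in WT and 1414, 599 and 2414 in MUT. It had a WT mean of 70.5 ± 30.1 and a MUT mean of 60.9 ± 29.7 CPM, with overlapping genotypes (log2 fold change -0.21, SE 0.55). Tbxas1, the thromboxane synthase, had 206 counts in WT library 2, 16 in MUT library 2, 66 in MUT library 3 and 0 elsewhere. Ptgis, the prostacyclin synthase, had 23 counts in WT library 3, 147 in MUT library 1, 24 in MUT library 3 and 0 elsewhere. None of the 3 passed edgeR's test. Cyp2ab1, which has a pair of letters in its symbol, had 24 and 3 counts in WT libraries 2 and 3 and 97 in MUT library 3. Among the 15 pseudogene symbols, the highest value was 10 counts for Cyp4a28-ps in WT library 3.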
